A study of Mus musculus with 24 samples.

Results

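All 307 windows of 100 bp that the authors listed as differing in DNA 5-methylcytosine (5mC) between Pspc1-KO and wild-type (WT) mouse embryonic stem (mES) cells are described here, out of 14618 distinct windows listed in the whole series. They were chosen by their presence in the deposited table of this comparison and by nothing else. The DNA came from WT mES cells and from mES cells lacking Pspc1, grown in serum with LIF, CHIR99021 and PD0325901, with no siRNA in either group. Each group had 3 libraries pulled down with an antibody against 5mC (MeDIP-seq, IP libraries) and 3 input libraries sequenced without the antibody. How the Pspc1-KO line was made, and whether it is a clone, is not given in the sources used here, and the labels do not say whether replicates were separate cultures, so p-values measure the spread between these libraries only. No listed window lay within 5 kb of Pspc1, and no pluripotency gene on the list examined had one nearby, so the tables give no check of the KO or of the cell type.

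PSPC1 belongs to paraspeckles, nuclear bodies built on a long non-coding RNA, where it binds RNA, and it also binds TET2, an enzyme that oxidizes 5mC in DNA and RNA. DNA 5mC in mammals sits mostly at CpG sites, is written by DNMT enzymes, is removed by TET oxidation or by dilution at replication, and marks silent repeats, imprinted genes and ribosomal gene copies that are kept off. In MeDIP the read number at a window follows the amount of methylated DNA there, and therefore also the number of gene copies, which the reads of an input library follow without regard to methylation.

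The windows that best show what moved are given below on the plus strand of GRCm38 (the same build as mm10), with CpG sites, the targets of methylation, in capitals. For each named locus the window with the largest absolute log2 difference outside annotated UTRs was taken.
Ribosomal block, chr17:39845601-39845700: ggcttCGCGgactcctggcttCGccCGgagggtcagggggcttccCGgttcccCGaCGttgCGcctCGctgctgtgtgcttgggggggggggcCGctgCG
Ahnak2, chr12:112778801-112778900: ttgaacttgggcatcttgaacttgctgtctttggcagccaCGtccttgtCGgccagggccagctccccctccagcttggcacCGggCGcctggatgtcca
Slc38a4, chr15:97054801-97054900: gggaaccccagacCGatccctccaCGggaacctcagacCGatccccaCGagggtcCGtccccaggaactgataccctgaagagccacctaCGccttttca
Zfp777, chr6:48024901-48025000: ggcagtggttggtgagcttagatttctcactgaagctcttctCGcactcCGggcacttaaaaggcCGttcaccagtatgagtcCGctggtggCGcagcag
Gnas and Nespas, chr2:174284801-174284900: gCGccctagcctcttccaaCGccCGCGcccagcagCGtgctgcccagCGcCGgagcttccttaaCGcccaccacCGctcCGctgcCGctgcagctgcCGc
Dlx5, chr6:6879401-6879500: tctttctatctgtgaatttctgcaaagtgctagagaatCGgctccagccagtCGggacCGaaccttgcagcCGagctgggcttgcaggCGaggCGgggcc
Zfhx3, chr8:108712101-108712200: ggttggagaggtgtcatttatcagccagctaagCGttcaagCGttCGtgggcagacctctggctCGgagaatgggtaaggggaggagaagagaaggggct
The ribosomal window held 11 CpG sites and the Gnas window 12, while Ahnak2 and Zfhx3 held 4 each, Zfp777 5, Slc38a4 6 and Dlx5 7. The count for Dlx5 includes a site that crosses the end of the window and is not in capitals. The ribosomal, Ahnak2, Slc38a4 and Zfp777 windows were lower in Pspc1 KO and the Gnas, Dlx5 and Zfhx3 windows were higher.

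Of the 307 windows, 249 (81.1%) were lower in Pspc1 KO, in 79 regions of adjoining windows, and 58 (18.9%) were higher, in 30 regions. The median log2 difference (KO over WT, RPKM) was -0.66 ± 0.009 for the lower windows and 0.70 ± 0.036 for the higher ones (SD over 3 KO libraries, each against the WT mean), with ranges from -1.40 to -0.13 and from 0.20 to 2.38. Because the authors selected the windows on these IP libraries, the IP sizes are inflated by selection and carry no independent test, and it is a property of the list that the 3 KO and 3 WT IP libraries did not overlap at any window (100%) and that edgeR called every window again. With library sizes set from the listed windows themselves the split became 96 higher and 108 lower with TMM and 97 and 75 with DESeq2's size factors, since these moved all log2 differences up by 0.49 and 0.54 and turned 67 and 85 of the 249 lower windows higher. No higher window turned lower, as none could under an upward shift, and the windows that turned were those whose fall was smaller than about the shift.

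The lower windows were rich in CpG sites. Their median was 7 CpG sites among the 235 that could be annotated, and 75.7% held 5 or more, against a median of 4 and 37.9% for the 58 higher windows. Without the ribosomal block of chromosome 17 described further on, 69.8% of the annotated lower windows held 5 or more. Across 26474739 windows of the reference the median was 0 and 1.67% held 5 or more. Listed windows had to hold enough reads in a 5mC pull-down, so the reference windows are not a matched background. Repeats masked at least 50% of the window in 14.5% of lower, 15.5% of higher and 32.6% of all reference windows. The middle 32 bases occurred once in the reference in 136 lower and 42 higher windows, and at more than 10 positions in 57 and 10. Lower windows lay in non-coding exons (62), coding exons (55), intergenic DNA (54), introns (52) and UTRs (12), and 14 on unplaced contigs were not annotated. Higher windows lay mostly in introns (35), with 11 intergenic, 10 in coding exons and 2 in non-coding exons.

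Depth ranged over 21.8 to 23.9 M reads for IP of KO, 20.4 to 39.8 M for IP of WT and 10.5 to 14.8 M for input. WT IP replicate 3 was the deepest and stood apart at these windows (chi-square per degree of freedom 3.13 and 2.03 against replicates 1 and 2), whereas replicates 1 and 2 did not differ beyond sampling noise (0.937, and 1.10 with a chi-square p = 0.12 when scaled by library totals). They were counted as 1 sample in each mean ± SD, so n = 2 for WT IP. The 3 KO IP pairs were at 0.78 to 1.01 with none standing apart, so there was no contrast within the group by which to merge any of them, and they were kept as n = 3, as were the inputs. These KO pairs also did not differ beyond sampling noise. Their SDs may therefore understate the spread between samples and are not comparable with those of WT IP. A refit without WT IP replicate 3 called all 307 windows again, as did every refit of the IP that left out 1 library, which says nothing of stability because the windows had been selected on these libraries. The windows took 0.841% ± 0.0059 of KO IP reads (n = 3) and 1.09% ± 0.034 of WT IP reads (n = 2). In the inputs they took 0.0794% ± 0.0027 of KO and 0.0842% ± 0.0009 of WT reads (n = 3 each, exact permutation p = 0.1, two-sided, the smallest that 3 against 3 libraries can give). Without 12 windows of chromosome 4 described further on, input at the lower windows was 97.8% of WT and the groups overlapped. The windows left out held all called input differences. Those kept include the deep ribosomal block, whose input was 99.5% of WT, so the mean does not speak for the lower windows outside it.

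The input libraries did not enter the choice of the windows, although IP reads follow copy number too, so that the choice may favour windows whose copy number differs. The inputs of 10 windows (3.26%) were lower in KO by edgeR's quasi-likelihood test with Benjamini-Hochberg adjustment, and 0 were higher. At an unadjusted p under 0.05 there were 34, of which 25 were lower and 9 higher. DESeq2 called 0 windows with either scaling. The count of lower windows was 0 without WT input replicate 3, 4 and 5 without KO input replicates 3 and 2, 6 without WT input replicate 1 or 2 and 8 without KO input replicate 1. Input groups did not overlap at 51 windows (16.6%). The median input log2 difference was 0.02 ± 0.177 at the higher and -0.07 ± 0.07 at the lower windows. Input depth was low at most windows, with a median of 12 WT reads over 3 libraries at the lower windows and 5.5 at the higher ones, so that modest differences in copy number were not detectable at single windows. In the test of IP relative to input, whose IP side chose the windows, 82 (26.7%) were lower and 2 (0.651%) higher, which became 37 lower and 8 higher with TMM scaling from the windows.

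The largest connected change was in ribosomal DNA (rDNA), the genes for the RNA of the ribosome, which mammals carry in many near-identical copies. A block at chr17:39843001-39848800 held 56 lower windows in 3 regions, with a gap of 1 window between neighbouring regions. It is annotated as the non-coding genes Gm26917, CT010467.1, Gm42418 and AY036118, and 19 of its windows overlapped Rn18s-rs5, an 18S ribosomal RNA related sequence at chr17:39846354-39848202. The 3 KO IP libraries gave a mean of 86.2, 84.6 and 81.7 RPKM over the block and the 3 WT IP libraries 160.4, 159.4 and 160.1. The groups were far apart, with KO at 52.6% of WT (84.2 ± 2.3 RPKM, n = 3, and 160.0 ± 0.119, n = 2).

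Input at the block did not separate the groups. It was 80.7, 74.1 and 76.6 RPKM in KO and 75.7, 79.7 and 77.0 in WT, and the ranges overlapped (KO at 99.5% of WT, exact permutation p = 0.9, two-sided). This depth was far above the median WT input of 1.36 RPKM at higher windows with 1 reference copy, although the middle bases of a block window occurred at a median of 1 position in the reference, which does not hold the ribosomal arrays in full. IP over input fell from 2.06 in WT to 1.09 in KO. All 56 windows were lower relative to input (edgeR log2 differences from -1.30 to -0.48, largest adjusted p = 0.024), and they made up most of the 82 such windows. With scaling from the windows, 31 of the 56 were called lower relative to input with TMM and 51 with DESeq2, and none higher. Within the block, windows overlapping Rn18s-rs5 had a median IP log2 difference of -0.80 and the rest of the block -0.94. All 56 stayed lower with both scalings set from the windows, at medians of -0.45 and -0.39 relative to the shifted centre. Adjoining windows share reads, so the 56 are not separate observations.

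**Figure D1:**
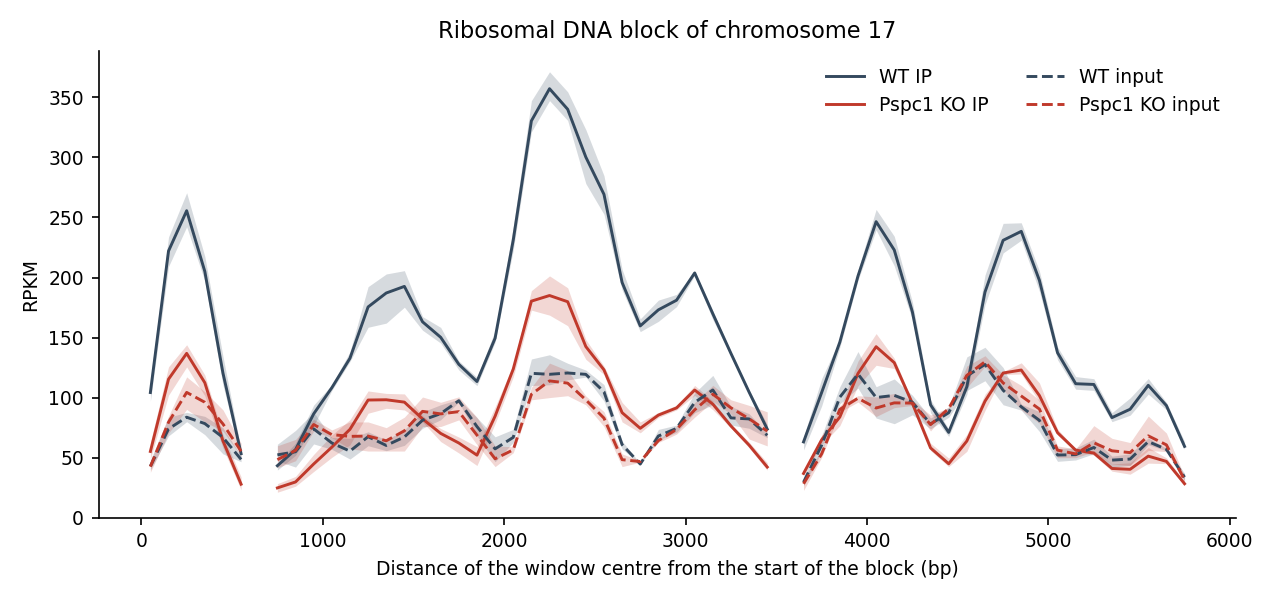
RPKM (y axis) at each listed window along the ribosomal DNA block of chromosome 17 (x axis, distance in bp from its start), as the mean (line) and range (band) of 3 libraries for WT and Pspc1-KO IP (solid) and input (dashed). The KO IP line runs below the WT IP line at all 56 windows, while the 2 input lines overlap.

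In the other ribosomal family 1 region of 2 windows showed the same direction. 5S ribosomal RNA genes are repeated on chromosome 8, where RefSeq places 40 features with n-R5s names between 123538784 and 123622046. This region, chr8:123600801-123601000, lies inside the cluster between the features n-R5s136 and n-R5s138 and overlaps neither. It gave 73.7, 69.5 and 69.6 IP RPKM in KO and 105.8, 101.7 and 104.5 in WT (68.2% of WT). Its input was 10.6, 18.5 and 10.5 RPKM in KO and 10.7, 11.1 and 7.77 in WT, which overlapped. Both windows were lower relative to input, but 0 were with TMM and 1 with DESeq2's size factors from the windows, and under the latter the IP difference of 1 of them turned higher.

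A further 45 lower windows outside the rDNA block had a WT input of at least 20 RPKM, and none of the higher windows did. They include those of the 12 windows of chromosome 4 described further on that reached this depth. Over all 45, IP stood at 74.1% and input at 86.6% of WT, with no overlap in either, input was below WT at 34 windows, and 19 and 13 stayed lower in IP under TMM and DESeq2 scaling from the windows. Relative to input 13 of the 45 were lower, against 3 lower and 5 higher with TMM and 8 lower and 1 higher with DESeq2's size factors. The following 3 loci were picked from the 45 after their values were seen. The region chr3:5860401-5860800 (intergenic, 4 windows) stood at 21.8, 23.6 and 23.7 IP RPKM in KO and 46.5, 52.2 and 51.0 in WT, with inputs of 70.4 and 70.1 RPKM. Inside introns of Filip1l and Cmss1, chr16:57391301-57391700 (4 windows) gave 62.8, 58.4 and 53.1 in KO and 100.3, 105.2 and 113.3 in WT, with inputs of 45.0 and 47.6. In a Zc3h7a intron, chr16:11143901-11144000 gave 24.3, 25.9 and 17.7 in KO and 44.2, 42.6 and 48.0 in WT, with inputs of 27.3 and 29.1. The IP log2 differences of these 3 loci were -1.11, -0.87 and -0.99, beside -0.93 over the rDNA block, and all 9 windows were lower relative to input with scaling by library totals. With TMM scaling from the windows only 3 of the 4 on chromosome 3 were, and none of the 5 on chromosome 16, and with DESeq2's size factors 8 of the 9 were.

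Ahnak2 contained the most regions of any gene. It encodes a giant scaffold protein of the AHNAK family, whose single large coding exon is made of tandem repeats. Between chr12:112776601 and 112784500, 32 of 79 windows were listed in 16 regions, all lower, with log2 differences from -0.88 to -0.49. The mean over them was 57.7, 59.98 and 60.7 IP RPKM in KO and 91.3, 89.8 and 91.9 in WT, so the groups did not overlap and KO stood at 65.4% of WT. The sequence repeats with a period of 519 bp, at which 70.6% of bases in this stretch were equal, and the middle bases of a window occurred at a median of 15 positions. Reads could therefore be placed at any of several repeat units, and the 16 regions cannot be taken as separate loci. Input was 1.14 ± 0.256 RPKM in KO and 1.30 ± 0.23 in WT (n = 3 each, p = 0.5, exact permutation), from 120 and 162 reads over all 32 windows. Only 2 of the windows were lower relative to input at that depth, and 1 with either TMM or DESeq2 scaling from the windows. In IP, 1 of the 32 turned higher with TMM scaling and 7 with DESeq2's.

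Imprinted genes, which are expressed from 1 parental allele under the control of allele-specific methylation, were the only list of 6 examined that had windows within 5 kb. Of 38 imprinted genes, 36 were matched in the annotation and 5 (13.9%) had a window so near, 3 of them a lower one, while Gnas and Nespas share 1 higher window. Of all 55450 annotated genes 95 (0.171%) did, and of 21951 protein-coding genes 62 (0.282%), which is given as a description without a test. The lists were chosen with earlier results of these data known, and genes with too few IP reads to be listed count in both backgrounds. The shares therefore do not measure an enrichment. At Plagl1, a growth-suppressing zinc finger gene, 3 windows at its start (chr10:13090801-13091100, UTR) gave 74.2, 70.6 and 78.2 IP RPKM in KO and 111.5, 110.9 and 118.1 in WT (65.5% of WT). At Nnat, a neuronal proteolipid gene within an intron of Blcap, the window chr2:157560001-157560100 gave 37.2, 43.0 and 46.7 in KO and 65.3, 65.8 and 63.8 in WT (65.1%).

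Slc38a4, which encodes an amino acid transporter, fell furthest of the imprinted loci. Its 3 intronic windows, chr15:97054601-97054900, lay 1056 to 1256 bp from the nearest start site and gave 11.9, 13.9 and 9.37 IP RPKM in KO and 29.1, 24.8 and 31.8 in WT, or 41.1% of WT. The window at Gnas and Nespas moved the other way, with 20.7, 18.8 and 20.4 in KO and 6.38, 10.4 and 8.04 in WT (241.1%). Gnas encodes a G protein alpha subunit and Nespas is its imprinted antisense transcript, and the window is in a Gnas coding exon. All 4 loci had 1 reference copy. With either scaling set from the windows the lower ones kept their direction. At Gnas it could not turn, because these scalings move log2 differences up. The median log2 difference of the lower loci shrank with TMM and DESeq2, to -0.12 and -0.07 at Nnat, -0.15 and -0.09 at Plagl1 and -0.81 and -0.75 at Slc38a4. Input rested on few reads, from 2 in KO and 5 in WT at Nnat to 16 and 8 at Slc38a4, where the KO inputs (1.76, 1.54 and 1.58 RPKM) were all above the WT inputs (1.23, 0.297 and 0.45, exact permutation p = 0.1).

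No window lay within 5 kb of any of the 17 paraspeckle genes, 22 writers, readers and erasers of DNA 5mC, 20 pluripotency genes or 23 germline genes that DNA methylation silences (22 matched), nor of 19 genes of RNA m5C and the MBD6-BAP1 axis (18 matched). Since the table lists only windows that passed the authors' threshold, methylation at these genes was not measured here.

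Genes of zinc finger proteins, which bind DNA, had exon windows in both directions, and no list of such genes was fixed, so their number has no background. In Zfp777, 7 coding windows (chr6:48024701-48025400) gave 59.6, 53.7 and 54.6 IP RPKM in KO and 91.6, 85.5 and 83.1 in WT. In Zfp444 (chr7:6189601-6189800) the values were 25.3, 27.4 and 26.3 in KO and 42.5, 53.7 and 53.9 in WT, and in Zfp791 (chr8:85110001-85110300) 36.4, 33.4 and 37.2 against 59.1, 62.1 and 57.3. These 3 genes stood between 52.6% and 64.5% of WT and stayed lower with either scaling set from the windows, though by less, with median log2 differences under TMM and DESeq2 of -0.14 and -0.09 at Zfp777, -0.46 and -0.40 at Zfp444 and -0.25 and -0.21 at Zfp791. In Zfp872 (chr9:22188101-22188300, 2 windows at its start) KO was higher, with 17.2, 22.3 and 19.3 against 9.58, 6.86 and 7.67 (244.1%). Input at Zfp777 was higher in KO in every library (1.89, 2.12 and 0.814 RPKM against 0, 0.633 and 0.58, from 37 and 11 reads, exact permutation p = 0.1), opposite to its IP, and 3 of its windows were lower relative to input (1 with TMM scaling).

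Dlx5 and Zfhx3 were among the 6 higher regions of 1 reference copy with the largest difference. Both scalings set from the windows move log2 differences up, so the direction of these 2 loci could not have turned. Dlx5, a homeobox gene of craniofacial and limb development, gave 19.6, 23.7 and 22.2 IP RPKM in KO and 8.19, 8.83 and 10.8 in WT over 3 windows at chr6:6879301-6879600, covering intron and coding exon (235.4% of WT). Zfhx3, a zinc finger homeobox gene, had the largest log2 difference of all, at 2 intronic windows (chr8:108712101-108712300) with 10.8, 8.56 and 8.85 in KO and 1.72, 2.60 and 2.14 in WT (436.8%). These 2 windows were higher relative to input with scaling by library totals and with TMM and DESeq2 scaling from the windows. TMM called 8 windows higher in all, and the filter on a mean of at least 10 counts, which leaves these 2 out, called 0. Their inputs went the other way (0.88, 0.93 and 1.43 RPKM in KO, 4.82, 4.88 and 1.69 in WT, from 7 and 29 reads, exact permutation p = 0.1), and WT IP there was below WT input. Protocadherin alpha genes, which encode neuronal adhesion proteins, also had higher windows, in the exon of Pcdha5 (16.5, 17.5 and 15.2 in KO, 5.16, 4.97 and 6.03 in WT) and of Pcdha3 (21.6, 16.7 and 19.95 against 9.33, 8.04 and 6.53). The middle bases of these protocadherin windows were found at 4 and 10 positions.
Intergenic windows completed the largest differences at 1 reference copy. The region chr9:4260401-4260600 gave 12.6, 14.4 and 15.4 IP RPKM in KO and 25.5, 31.5 and 30.3 in WT, and chr17:88839301-88839400 gave 19.3, 16.3 and 20.4 against 37.8, 34.5 and 38.9. Higher in KO were chr6:148766801-148766900, with 18.4, 17.1 and 15.4 against 3.44, 8.52 and 6.53, and chr1:88760801-88761000, with 21.4, 21.9 and 19.05 against 10.3, 7.81 and 8.67. The groups did not overlap at any of them.

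**Figure D2:**
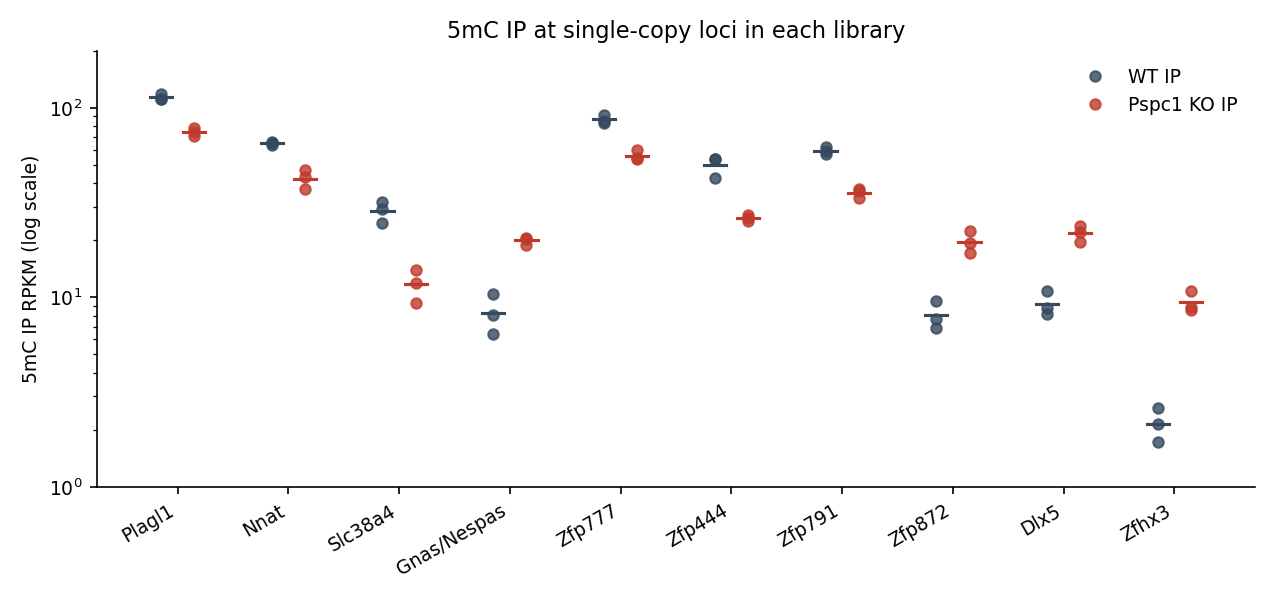
5mC IP signal (y axis, RPKM on a log scale, averaged over the listed windows of a locus) in each WT and Pspc1-KO library at 10 loci, with a bar at the mean of 3 libraries. KO points lie below WT at Plagl1, Nnat, Slc38a4, Zfp777, Zfp444 and Zfp791 and above WT at Gnas and Nespas, Zfp872, Dlx5 and Zfhx3.

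Some further genes had lower windows in exons or at start sites. Hcn2, a pacemaker channel gene, had 7 windows in 3 regions (chr10:79735001-79735900) with 83.0, 78.3 and 80.7 IP RPKM in KO and 122.7, 118.2 and 113.3 in WT. At Chst13, a chondroitin sulfotransferase gene (chr6:90309301-90309600), the values were 96.1, 77.7 and 88.1 against 125.6, 125.1 and 123.5. Fkbp6, a germ cell gene required in meiosis, gave 90.0, 91.4 and 94.3 against 122.3, 120.2 and 137.1 at its start, and Atcay, which encodes the neuronal protein caytaxin, gave 62.4, 76.8 and 68.5 against 103.1, 110.2 and 97.2. With TMM and DESeq2 scaling from the windows the Fkbp6 window and at least 1 of the Chst13 windows turned higher, and 5 and 4 of the 7 Hcn2 windows stayed lower. Hcn2 inputs were higher in KO (0.881, 1.06 and 0.543 against 0.211, 0.381 and 0.483 RPKM, 19 and 10 reads, exact permutation p = 0.1).

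Some windows with very high IP signal differed by little. Over 6 windows that overlap Sfi1, a centrosome gene (chr11:3192901-3193500, at its start), KO stood at 1055, 1072 and 1057 IP RPKM and WT at 1320, 1329 and 1320 (80.2% of WT), with input at 110.6% of WT. In an Fbh1 intron 950 bp from its start site, chr2:11744601-11744800 gave 1138, 1137 and 1141 against 1269, 1244 and 1266. At Gm10717 on chromosome 9 (882, 893 and 892 against 1007, 988 and 988) the mean input was 85.8 against 96.8 RPKM, and the input groups overlapped. At Sfi1, Fbh1 and Gm10717 all these windows turned higher with either scaling set from the windows. Other lower regions of 6 windows each differed by more, in an intron of Npas3, a neuronal transcription factor gene (218.2, 208.9 and 219.2 against 323.5, 340.0 and 330.9) and in intergenic DNA at chr6:137704301-137704900 (31.1, 35.6 and 29.4 against 57.9, 60.2 and 53.2).

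Windows of like direction also ran together over long segments of a chromosome. The following segments were chosen after their values were seen and have no test of their grouping. On chromosome 6, all 12 regions from 140705301 to 148766900 were higher in KO (22 windows), including introns of Golt1b and Sox5 and coding exons of Bcat1 and Lrmp. Their mean IP was 76.7, 76.8 and 75.7 RPKM in KO and 46.0, 46.4 and 47.9 in WT (163.4% of WT), and 15 windows with 1 reference copy gave 176.5%. Bcat1, an enzyme of branched-chain amino acid breakdown, gave 96.3, 94.6 and 93.3 in KO and 41.9, 47.3 and 49.7 in WT. Lrmp, a membrane protein gene of lymphocytes, gave 72.1, 72.4 and 64.2 against 39.5, 37.1 and 43.6. Input over the segment was 0.921, 1.69 and 1.04 RPKM in KO and 0.908, 0.927 and 1.17 in WT, which overlapped (121.3% of WT, exact permutation p = 0.6), from 87 and 88 reads. None of the 22 windows was higher relative to input at that depth, and the part of copy number in this difference was not tested further.

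On chromosome 13 the opposite held. All 10 regions from 112846701 to 119601600 were lower (23 windows), including introns of Plpp1, Cdc20b and Tmem267. IP was 218.0, 223.1 and 217.7 RPKM in KO and 279.4, 282.6 and 277.5 in WT (78.5% of WT). Input was 6.98, 7.05 and 6.77 in KO and 7.83, 8.76 and 7.08 in WT, without overlap (87.9%, exact permutation p = 0.1, adjusted p = 0.3 over 30 sets of windows), and no window had a called input difference. At 19 of 23 windows input was below WT. IP over input was 31.7 in KO and 35.5 in WT, and only 1 window was lower relative to input. The direction of the IP difference was not held under the other scalings, where 6 of 23 windows stayed lower.

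The clearest input difference was on chromosome 4. Intergenic DNA at chr4:118547001-118548500, whose nearest start site is that of Tmem125, held 12 windows in 2 regions with the deepest IP of the table. KO gave 2561, 2619 and 2661 IP RPKM and WT 3977, 3790 and 3495 (69.6% of WT, with 8 and 3 of 12 windows still lower under TMM and DESeq2 scaling), and input was 106.1, 99.5 and 96.99 in KO and 129.3, 132.6 and 130.9 in WT (77.0%). All 10 windows with a called input difference were here, with edgeR log2 differences from -0.52 to -0.30 and adjusted p from 0.000142 to 0.0463. The IP over input was 25.9 in KO and 28.7 in WT, and 0 of 12 windows differed relative to input. WT IP replicate 3 was the lowest WT library here. A contig that is not placed on a chromosome had 13 lower windows, with IP at 86.9% (2 and 1 of 13 windows still lower under those scalings) and input at 89.5% of WT and no overlap in either. Relative to input 0 of these 13 windows differed, but 4 were higher with TMM scaling and 1 with DESeq2's size factors.

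Introns of Def8, a gene of lysosome positioning in bone cells, held 16 higher windows in 5 regions at chr8:123426801-123434100. IP was 536.1, 543.2 and 533.9 RPKM in KO and 445.8, 440.9 and 446.9 in WT (121.0% of WT). Input was 9.10, 10.6 and 9.86 in KO and 7.97, 7.49 and 9.71 in WT (117.4%, overlapping, exact permutation p = 0.2), and it was above WT at 15 of 16 windows. IP over input was 54.6 and 53.0, and 0 windows differed relative to input.

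**Figure D3:**
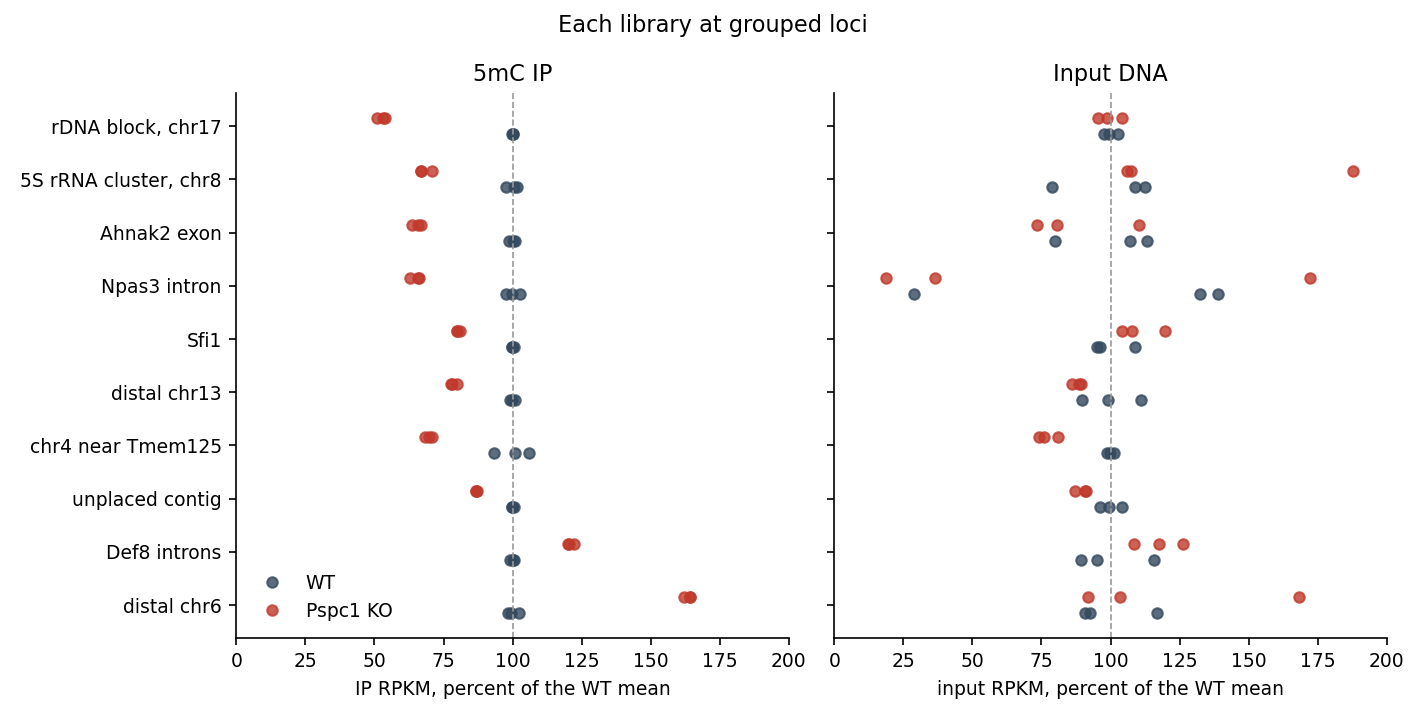
IP (left) and input (right) RPKM of each library as a percent of the WT mean (x axis) at 10 groups of windows (y axis), with WT and Pspc1-KO libraries as points. Scaled by library totals, KO means are 52.6% (IP) and 99.5% (input) of WT at the ribosomal block and 69.6% and 77.0% on chromosome 4.

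**Figure D4:**
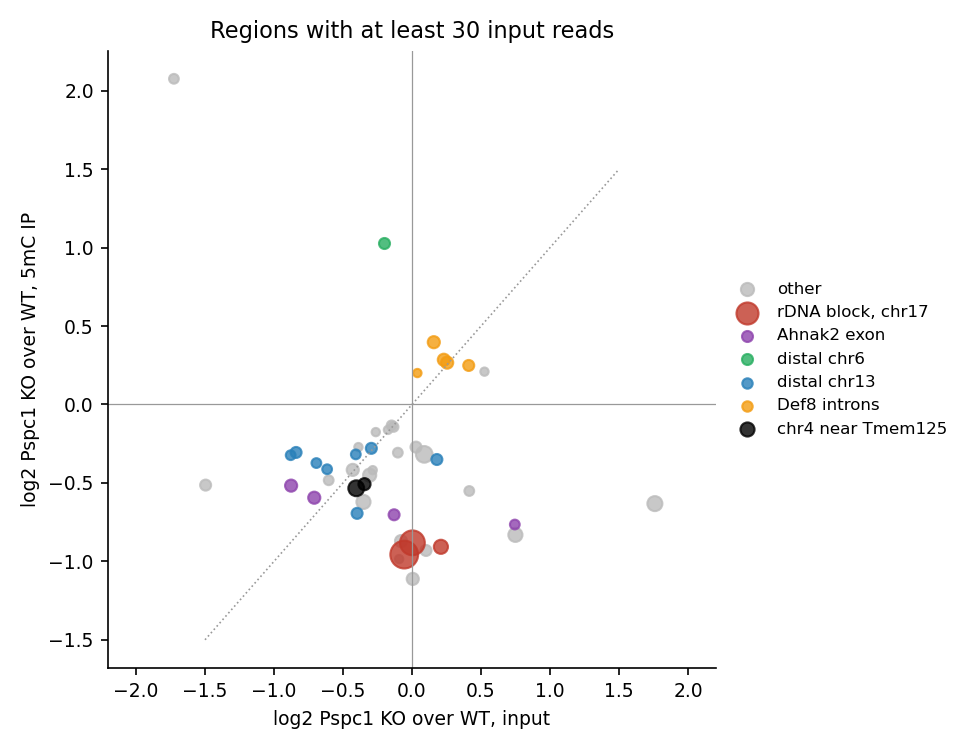
Log2 KO over WT of the IP (y axis) against that of the input (x axis) for the 46 of 109 regions with at least 30 input reads, with point size growing with the number of windows and the dotted line marking equal change. The 3 ribosomal regions are at -0.91, -0.96 and -0.88 on the IP axis and 0.21, -0.06 and 0.00 on the input axis, and the 2 regions of chromosome 4 at -0.53 and -0.51 and at -0.40 and -0.34.

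The Pspc1-KO list was set beside the list of Tet2 KO against WT, both with siNC, which was made from other libraries, including other WT libraries. The WT columns of both lists carry the name Tet2WT, so the WT line may be the same. A trait of that line would enter both lists alike, which was not tested. Of the 307 windows, 171 (55.7%) were in the Tet2-KO list, which is 1.20% of its 14279 windows. That list was as large as 0.0539% of the reference windows, and 83.1% of it was lower in Tet2 KO, beside 81.1% lower in the Pspc1-KO list. Windows too thinly covered to be tested count among the reference windows, so no test was made of this overlap. The direction was the same at 166, of which 159 were lower and 7 higher in both, while 4 windows at Sfi1 and its neighbour Drg1 were lower in Pspc1 KO and higher in Tet2 KO and 1 window on chromosome 6 did the reverse. Sizes differed between the lists. At the 50 shared rDNA windows the median log2 difference was -0.94 in Pspc1 KO and -2.97 in Tet2 KO, with libraries at 6.72 to 7.82 RPKM in Tet2 KO and 51.2 to 63.8 in WT siNC. For the 24 shared Ahnak2 windows it was -0.64 and -1.67.

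At Plagl1 the median log2 difference over shared windows was -0.62 in Pspc1 KO and -3.60 in Tet2 KO. At 4 other loci the Tet2-KO libraries held so few reads that a log2 difference would depend on the pseudocount, so the medians over shared windows are given in RPKM. They were 0.71 to 2.13 in Tet2 KO and 26.05 to 30.36 in WT siNC at Nnat, 0 to 0.71 and 7.80 to 9.78 at Slc38a4, 0 to 1.12 and 36.1 to 47.7 at Zfp777, and 0.36 to 0.71 and 22.95 to 26.02 at Zfp444. The windows at Gnas and Nespas, Zfp791 and Zfp872 were not in the Tet2-KO list. All 12 windows of chromosome 4 were shared, at -0.52 and -1.07, and no input of the Tet2 experiment was analysed here. Among the higher loci, Bcat1 windows on distal chromosome 6 were at 1.03 and 1.61 and a Zfhx3 window at 1.87 and 2.35. The lists for siNsun2 against siNC shared 7 windows in Tet2-KO cells (2.87% of 244) and 2 in WT cells (6.45% of 31), with the same direction at 5 of the 7 and at 0 of the 2. All 31 windows of the latter list were higher with siNsun2.

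**Figure D5:**
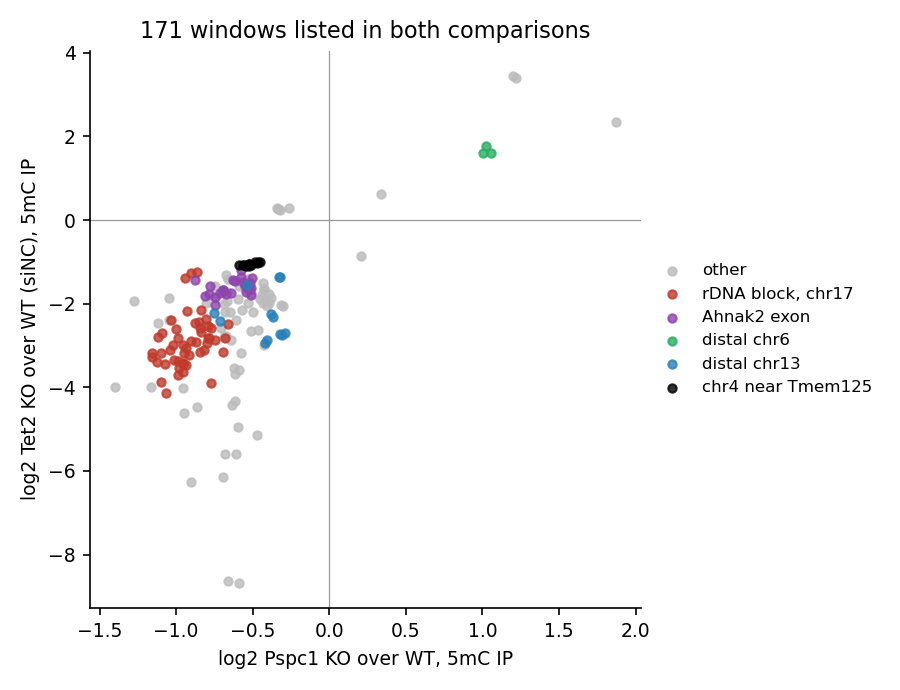
Log2 difference of the 5mC IP in Tet2 KO over WT with siNC (y axis) against that in Pspc1 KO over WT (x axis) for the 171 windows listed in both comparisons, coloured by locus. Most points are at the lower left, with the Tet2-KO difference the larger, and the scales of the axes differ. The lowest points, at Zfp777, had 0 RPKM in all 3 Tet2-KO libraries and are placed by the pseudocount of 0.1.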

How the data were processed

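MeDIP-seq of WT and Pspc1-KO mES cells (3 IP and 3 input libraries each) was analysed. The authors trimmed reads with Trimmomatic 0.39, aligned them to mm10 with bowtie2 2.4.1, which places a read with several matches at its best position, removed duplicates with Picard and compared groups with MEDIPS and edgeR in windows of 100 bp without copy-number correction, keeping windows with at least 10 reads. The deposited table holds raw read counts per window, RPKM computed by the authors, and their relative methylation score, a fraction from 0 to 1, besides the CpG coupling factor, a score which equalled the CpG number of the reference in 293 of 293 windows. Only windows past the authors' threshold were deposited. Their fold changes and p-values were not used.

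Library totals were recovered from count over RPKM. Counts were fitted with edgeR 4.0.16 (quasi-likelihood test, R 4.3.3) in 3 fits (IP, input, and IP relative to input as an interaction over 12 libraries), with Benjamini-Hochberg adjustment over 307 windows at 0.05, checked on simulated data. DESeq2 1.42.0, TMM, filters, left-out replicates and the replicate block were alternatives. Log2 differences of RPKM used a pseudocount of 0.1. Locus means were ratios of mean RPKM without one. Permutation tests were exact (scipy 1.17.1). Regions are runs of adjoining windows of 1 direction. Copies are occurrences of the middle 32 bases in 66 reference sequences (GRCm38, GENCODE M21, RefSeq), and 14 windows on contigs were not annotated. Replicate numbers did not pair libraries (KO and WT IP deviations correlated at -0.06, -0.16 and -0.16). Named were, per direction, the 6 regions with most windows and the 6 with the largest change at 1 copy, all in exons or within 1 kb of start sites of protein-coding genes, all within 5 kb of listed genes, called input differences and windows shared with the Tet2-KO list. Some items that this rule names are not reported here. Loci of high input, distal segments, Def8 and the 5S cluster were added after values were seen. The members and lists were chosen with earlier results of these data known.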

Additional observations from a re-analysis of the deposited data

How the results depend on the processing

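The IP refit gave 58 higher and 249 lower windows in every fit that left out 1 library and with the replicate block, which shows no stability, since the windows were selected on these libraries, and the numbers of the labels were not found to pair libraries. TMM gave 96 higher and 108 lower, DESeq2's own size factors 97 and 75, windows with 1 reference copy 136 lower (fewer windows tested), and sums over regions, added after seeing the data, 30 and 79 (fewer units tested). The count of lower inputs, 10, became 5 with TMM, 0 with DESeq2 under either scaling, 1 among windows with 1 copy, 5 with the replicate block and 2 regions of 109 as region sums, with 0 to 8 lower and 0 to 1 higher when a library was left out. Relative to input, 2 higher and 82 lower windows became 8 and 37 with TMM, 0 higher with a mean of at least 10 counts and 1 and 14 as region sums. The replicate block gave 2 and 81, and leaving out a library gave 2 to 4 higher and 70 to 86 lower. The median IP log2 difference was 0.80 and -0.73 over windows with 1 copy, 0.75 and -0.56 over regions and -0.65 for lower windows with a pseudocount of 1. Leaving out a library gave 0.67 to 0.73 and -0.67 to -0.64 (IP) and -0.10 to 0.28 and -0.10 to -0.03 (input), and a difference in the share of reads of -0.272 to -0.242 (IP) and -0.0064 to -0.0039 (input) percentage points. The cause of these shifts was not tested unless given. The authors' relative methylation score went with RPKM in both directions, but it is a score of the same IP libraries at the same windows and no second measurement. No input libraries were summed, since merging a pair within sampling noise also required another pair of its group to differ beyond it, and no input pair did. Input depth limits what single windows show, and intervals of counts cover counting error only.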
